A study of Mus musculus with 6 samples.

Results

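The 35 genes described here make up the ATF4 pathway as it bears on amino acids and tRNA charging, in MCEC cells, a line derived from mouse cardiac endothelium. They were taken by gene symbol from a fixed list, out of 78317 gene rows in the deposited table, and each of the 35 was found. Only Ddit3 had more than 1 row, and its row with the higher summed count was used. RNA was sequenced from 3 wild-type MCEC libraries, which serve as controls, and from 3 MCEC libraries carrying a short hairpin RNA against Fat4 (ShFat4), an atypical cadherin. The sources used here do not say whether the controls carried a non-targeting hairpin, whether the knockdown line was 1 clone or a pool, or whether each library came from its own culture. The p-values therefore measure the spread between the 3 libraries of a group, possibly a technical spread. The series sets the comparison in the context of Fat4 in tumour vessels and tumour immunity.

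ATF4 is a leucine zipper transcription factor whose messenger RNA is translated better when the initiation factor eIF2 is phosphorylated, as happens when amino acids are short, when the endoplasmic reticulum is stressed or when haem is lacking. With C/EBP partners it binds a composite C/EBP-ATF element in genes that import amino acids, synthesise serine, glycine, asparagine and proline, and load tRNAs with amino acids. It also induces its own brakes, among them the pseudokinase TRIB3 and the eIF2 phosphatase subunit encoded by Ppp1r15a. Because much of this control is translational, the level of Atf4 messenger RNA is no measure of ATF4 protein.

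The C/EBP-ATF element has a recognisable sequence, which was looked for near the start sites of these genes. RefSeq promoter windows (GRCm38.p6, 250 bases before to 50 after each start) were available for 28 of the 35. The letters TGATGNAA, or TTNCATCA where the element lies on the other strand, were found in the windows of 10 of these 28 genes. Among all 27025 genes with a window, 4.51% held them on either strand. The 35 were listed as genes of the ATF4 pathway, so a difference from all genes is no independent result. The longer ER stress element, whose pattern does not contain that of the C/EBP-ATF element, was found in 0 of the 28 and in 0.137% of all genes, again on either strand. The sites below are those of 3 matching genes that fell in the knockdown and of 3 that did not pass the test, each 5′ to 3′ on the gene's own strand with the matched letters in capitals.
Trib3 (chr2:152344028-152344057, minus strand): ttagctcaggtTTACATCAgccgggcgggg
Chac1 (chr2:119351038-119351067, plus strand): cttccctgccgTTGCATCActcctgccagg
Yars1 (chr4:129189895-129189924, plus strand): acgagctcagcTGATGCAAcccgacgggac
Asns (chr6:7693214-7693243, minus strand): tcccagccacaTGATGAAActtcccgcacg
Pycr1 (chr11:120643833-120643862, minus strand): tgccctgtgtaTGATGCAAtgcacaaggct
Atf3 (chr1:191183425-191183454, minus strand): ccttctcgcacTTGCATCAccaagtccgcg
A match is a description of the letters and not evidence of binding, and no match says only that these letters are not in that window.

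The libraries held 10305810 to 11870091 counts, and levels are given as CPM, counts relative to the library total, after TMM scaling, which evens out differences in library composition. Fat4 itself was scarce. Its 3 control values were 0.97, 1.94 and 2.56 CPM and its 3 knockdown values were 0.76, 0.98 and 0.82 CPM. The groups overlapped, because control replicate 1 fell inside the knockdown range. The log2 fold change of Fat4 was -1.17 (SE 0.35, adjusted p = 0.033 by edgeR), and this call held in 1 of the 6 fits that left out a library, the fit without control replicate 1 (adjusted p = 0.0021), and reached 0.205 without control replicate 3. The Fat4 call was also lost in limma-voom (0.0674) and after removal of GC and length trends (0.0571). Of 13 endothelial markers 9 lay under 1 CPM, and Vwf, Tie1, Erg, Cldn5 and Emcn had no count in any library, against a limit of 3 counts, or 0.244 to 0.294 CPM, for counting error alone. All 13 summed to 86.0 to 94.5 CPM in control and 79.2 to 85.5 CPM in knockdown libraries. Most of it was Cd34, with group means of 52.5 and 53.1 CPM. Eng fell, from a mean of 26.3 to 19.6 CPM (adjusted p = 0.0195 by edgeR), and Cd34, Egfl7 and Esam did not pass the test. The 9 mesothelial markers summed to 1655 to 1749 CPM in control and 1467 to 1516 CPM in knockdown libraries, most of it Upk1b and Upk3b. Of the 9, 3 fell (Upk3b, Lrrn4 and Wt1), beside 8.44% of all tested genes. The others, Upk1b, Msln and Krt19 among them, did not pass the test. Krt8 and Krt18 were scarce, with control means of 1.10 and 1.14 CPM. The 6 fibroblast markers, with Lum and Tcf21 at no count, summed to 2012 to 2102 and 1565 to 1703 CPM, most of it Col1a1, which fell from 1964 ± 47.6 to 1513 ± 79.04 CPM (SD, n = 3), while Thy1 rose from 16.7 ± 0.47 to 20.8 ± 0.60 CPM. The 5 mural markers summed to 133 to 143 and 157 to 163 CPM, nearly all of it Acta2, which rose, with the other 4 under 1 CPM. Leukocyte markers summed to at most 4.37 CPM in any library, with Adgre1 at no count, and the 6 cardiomyocyte markers, with Myh6 and Nppa at no count, to 7.89 to 10.5 and 14.4 to 18.8 CPM. Of these 6 markers 5 lay under 1 CPM, and Myl7 alone rose, from 7.64 ± 0.62 to 14.8 ± 2.39 CPM (SD, n = 3). Ribosomal protein genes took 12.2% ± 0.62 of control counts and 13.9% ± 0.37 of knockdown counts (SD, n = 3, p = 0.1 by a two-sided exact permutation test, which cannot go lower with 3 libraries a group). Mitochondrially encoded genes took 4.96% ± 0.13 of control and 4.62% ± 0.20 of knockdown counts (SD, n = 3, p = 0.2 by the same permutation test). The part of these differences in the results that follow was not tested, and in bulk RNA fewer cells of a type and less RNA per cell cannot be told apart.

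In the Fat4 knockdown, more genes of the ATF4 pathway fell than rose. Of the 35, 33 passed the filter on low counts and were tested, 8 fell and 1 rose (edgeR's quasi-likelihood test at 0.05, with Benjamini-Hochberg adjustment over all 13372 genes tested). That is 24.2% lower and 3.03% higher, beside 8.44% of all tested genes called lower and 8.94% called higher. The genes that fell were Atf5, Cebpb, Trib3, Chac1, Slc7a5, Aars1, Eprs1 and Yars1, and the gene that rose was Ddit3. The median log2 fold change of the 33 was -0.12, beside -0.01 for all tested genes, and 23 of the 33 had a negative value. The changes were small, from a log2 fold change of -0.53 for Trib3 to 0.40 for Ddit3. In 16 genes every knockdown library lay below every control library and in 2, Atf4 and Ddit3, every knockdown library lay above, beside 17.5% and 17.4% of all tested genes.

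The number of genes that fell depended on which libraries entered the fit. It was 12 without control replicate 1, 3 without control replicate 2, 2 without control replicate 3, 5 without knockdown replicate 1, 5 without knockdown replicate 2 and 7 without knockdown replicate 3. Calls over all genes in these fits, in either direction, were 3077, 1029, 1226, 1216, 1165 and 1789 in that order. With all libraries in the fit they were 2324. The call of Ddit3, the gene that rose, held without control replicate 1 or 3 and was lost without each of the other 4 libraries. With libraries scaled by total count alone, 16 fell and 1 rose, beside 13.0% lower and 6.38% higher of all tested genes, and the share of calls that were higher went from 51.4% to 32.9%. When trends of each library on GC content and exon length were removed, 3 fell (Atf5, Trib3 and Eif4ebp1) and 1 rose (Atf4), beside 5.45% lower and 7.48% higher of all genes in that fit. The 8 genes that fell had a median GC content of 56.9%, against 49.4% for the tested genes with a GC value, and a median exon length of 2917 bases against 4174. Across these 12787 genes, which are not independent replicates, the log2 fold change ran with GC content at a Spearman's rho of -0.23 and with exon length at -0.25. Atf5 and Trib3 fell in every one of the 18 other fits that were run.

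**Figure D1:**
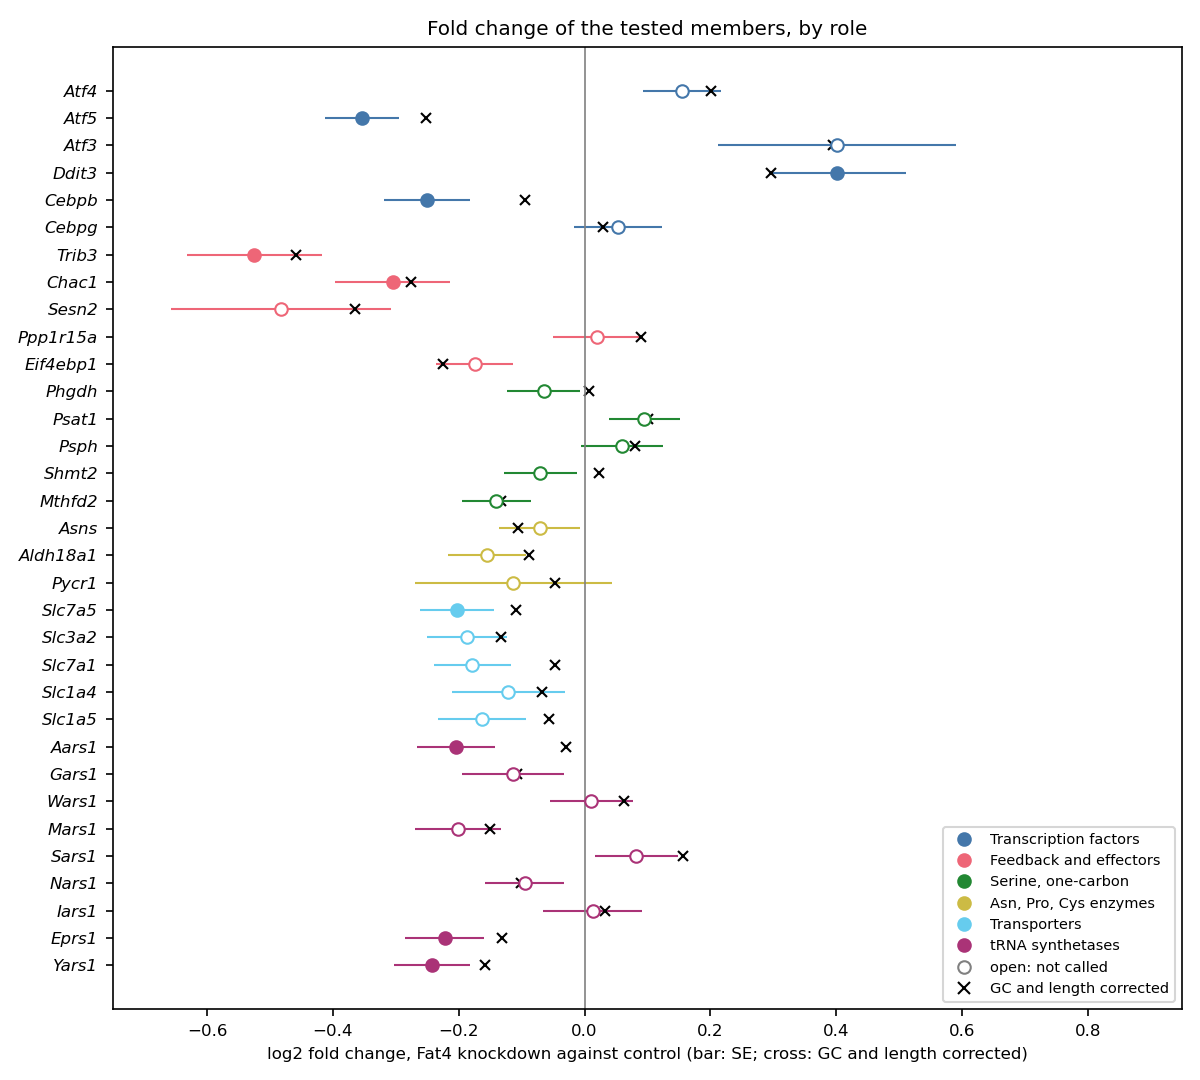
Log2 fold change of the 33 tested genes in the Fat4 knockdown against control, grouped by role. Points are estimates of the fit over all genes with their standard error as bars, filled where the gene passed the test and open where it did not, and crosses are the estimates after removal of GC and length trends. Trib3 lies lowest at -0.53 and Ddit3 highest at 0.40, and the cross for Aars1 lies at -0.03.

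Levels per kb of exon ran from 0.10 CPM per kb for Cth to 231 CPM per kb for Atf4. Atf4 was the most abundant at 231 ± 14.8 CPM per kb in control libraries (SD, n = 3), followed by Cebpb at 174 ± 13.0, Eif4ebp1 at 144 ± 2.47 and Gars1 at 120.2 ± 2.20. The serine pathway genes Shmt2 at 90.7 ± 2.67 and Phgdh at 83.1 ± 1.91 CPM per kb came next, and Slc7a5 at 80.04 ± 4.31 and Asns at 76.1 ± 5.32 CPM per kb were not separated beyond their spread. At the low end were Atf3 at 1.76 ± 0.39, Pycr1 at 1.62 ± 0.35 and Sesn2 at 1.15 ± 0.05 CPM per kb. The stress-inducible factor Ddit3 at 4.84 ± 0.33 and the feedback genes Trib3 at 7.11 ± 0.56 and Chac1 at 11.9 ± 0.82 CPM per kb lay in the lower part of the order. Cth, which makes cysteine from cystathionine, and Slc7a3, a transporter of arginine and lysine, did not pass the filter on low counts. Cth had 2, 3 and 5 counts in control and 2, 1 and 2 in knockdown libraries, and Slc7a3 had 5, 9 and 8 against 7, 4 and 8.

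**Figure D2:**
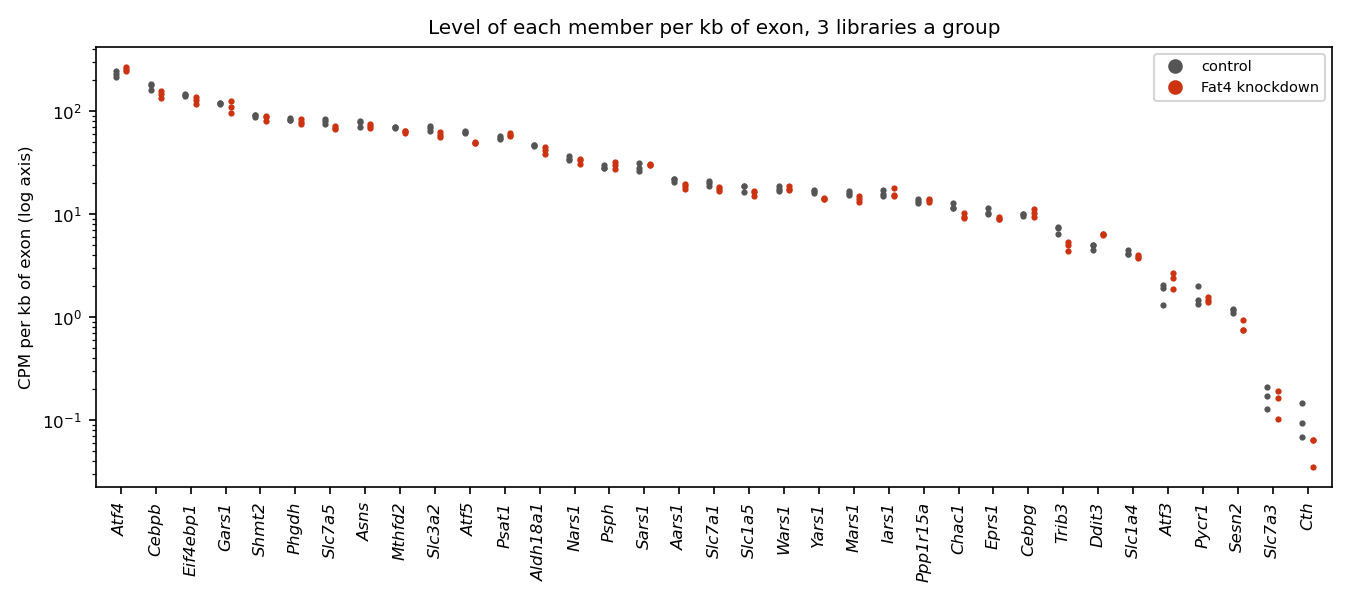
Level of each of the 35 genes in CPM per kb of exon on a log axis, ordered by the control mean, with 1 point per library (grey for control, red for Fat4 knockdown). Atf4 stands highest at 231 CPM per kb in control, and Slc7a3 and Cth lie below all others.

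The transcription factors moved in different directions. Of 6 tested, Atf5 and Cebpb fell, Ddit3 rose, and Atf4, Atf3 and Cebpg did not pass the test. That is 33.3% lower and 16.7% higher, beside 8.44% and 8.94% of all tested genes. The median log2 fold change of the 6 was 0.10. Without control replicate 2, knockdown replicate 1 or knockdown replicate 3, 1 fell and 0 rose, and without knockdown replicate 2, 2 fell and 0 rose.

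Atf4 (ENSMUSG00000042406, GRCm39 chromosome 15, 80139385 to 80141742) was measured at 508, 578 and 546 CPM in control and at 634, 579 and 604 CPM in knockdown libraries. The groups did not overlap, but control replicate 2 and knockdown replicate 2 were nearly level. The means were 544 ± 34.9 and 606 ± 27.7 CPM (SD, n = 3), and the log2 fold change of 0.16 (SE 0.06) missed the threshold (adjusted p = 0.0984 by edgeR). After removal of GC and length trends it was 0.20 (adjusted p = 0.0215), and no fit that kept these trends called it. Messenger RNA of the factor that names the pathway was lower in no knockdown library than in any control library.

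Atf5 (ENSMUSG00000038539, chromosome 7, 44461680 to 44466082) encodes a leucine zipper factor whose translation is controlled much as that of Atf4. Its 3 control values were 123, 126 and 129 CPM and its 3 knockdown values were 97.7, 99.8 and 97.4 CPM. The groups lay well apart and each was tight, with means of 126 ± 3.10 and 98.3 ± 1.3 CPM (SD, n = 3). The log2 fold change was -0.35 (SE 0.06, adjusted p = 0.00113 by edgeR). The adjusted p stayed at or below 0.0135 in all 18 other fits. Its exons share 82 bases with Nup62 on the opposite strand, which had more counts over all libraries (9995.5 against 7455). The sources used here do not say whether the counting used strand, so the value of Atf5 is uncertain.

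Ddit3 (ENSMUSG00000025408, chromosome 10, 127126643 to 127132157) encodes CHOP, a factor linked to cell death under prolonged stress. It was measured at 8.55, 7.64 and 8.67 CPM in control and at 10.9, 10.8 and 11.1 CPM in knockdown libraries. The groups did not overlap, and the knockdown libraries agreed closely. The means were 8.28 ± 0.56 and 10.9 ± 0.15 CPM (SD, n = 3), with a log2 fold change of 0.40 (SE 0.11, adjusted p = 0.0188 by edgeR). Leaving out control replicate 2 (adjusted p = 0.0993), knockdown replicate 1 (0.0580), knockdown replicate 2 (0.0524) or knockdown replicate 3 (0.0537) ended the call, as did DESeq2 (0.0951) and removal of GC and length trends (log2 fold change 0.30, 0.0859). Its exons share 68 bases with Mars1 on the opposite strand, which had more counts over all libraries (3450 against 635.5). The value of Ddit3 is uncertain for that reason.

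Cebpb (chromosome 2, 167530835 to 167532338), a C/EBP factor of inflammatory and stress responses, was measured at 240.1, 269 and 277 CPM in control and at 222, 236 and 203 CPM in knockdown libraries. Control replicate 1 lay only just above knockdown replicate 2. The log2 fold change was -0.25 (SE 0.07, adjusted p = 0.0197 by edgeR). No call was made without control replicate 2 (0.101) or 3 (0.0817) and without knockdown replicate 1 (0.0628) or 3 (0.0977), and removal of GC and length trends took the log2 fold change to -0.09. Cebpb has the highest GC content of the 35 genes, 67.2%. The exons of Cebpb share 312 bases with Peds1 on the opposite strand, so its value is uncertain. Cebpg, a dimer partner of ATF4, had a log2 fold change of 0.05 with overlapping groups, and Atf3, a stress-induced factor at 3.80 ± 0.85 and 5.03 ± 0.87 CPM (SD, n = 3), had 0.40 (adjusted p = 0.16 by edgeR).

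The feedback and effector genes were the group with the most negative median, -0.30 over 5 tested. Trib3 and Chac1 fell (40.0%, beside 8.44% of all tested genes), 0 rose, and Sesn2, Eif4ebp1 and Ppp1r15a did not pass the test. Leaving out control replicate 2, control replicate 3 or knockdown replicate 2 left 1 that fell, Trib3.

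Trib3 (ENSMUSG00000032715, chromosome 2, 152179342 to 152185952) encodes a pseudokinase that binds ATF4 and dampens its output. It stood at 15.5, 13.8 and 16.0 CPM in control libraries and at 11.3, 9.41 and 10.7 CPM in knockdown libraries. Every knockdown library lay below every control library. The means were 15.1 ± 1.19 and 10.5 ± 0.98 CPM (SD, n = 3), which gives a log2 fold change of -0.53 (SE 0.11, adjusted p = 0.00406 by edgeR), which is a fall of 30.5%. The adjusted p was at most 0.0309 in the 18 other fits. The match in its window starts 15 bases after the RefSeq start site.

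Chac1 (chromosome 2, 119181710 to 119184862) encodes an enzyme that degrades glutathione. It stood at 18.6, 21.0 and 18.7 CPM in control and at 15.2, 15.3 and 16.8 CPM in knockdown libraries. The groups did not overlap, with a log2 fold change of -0.30 (SE 0.09, adjusted p = 0.0313 by edgeR). Without control replicate 2 the adjusted p was 0.159, without control replicate 3 0.0529, without knockdown replicate 1 0.111 and without knockdown replicate 2 0.104. DESeq2 gave 0.13 and removal of GC and length trends 0.0532.

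Sesn2, a leucine sensor that restrains the growth kinase mTORC1, was measured at 3.79, 4.06 and 4.15 CPM in control and at 3.30, 2.65 and 2.63 CPM in knockdown libraries. Its log2 fold change of -0.48 (SE 0.17) missed the threshold (adjusted p = 0.069 by edgeR), at 27 to 51 counts a library. Eif4ebp1, which encodes a repressor of cap-dependent translation, was measured at 317 ± 5.43 and 281 ± 20.9 CPM (SD, n = 3), with a log2 fold change of -0.17 (adjusted p = 0.0592 by edgeR). It passed without knockdown replicate 1 (0.0374) and after removal of GC and length trends (log2 fold change -0.22, 0.0143). Ppp1r15a, the inducible eIF2 phosphatase subunit GADD34, was measured at 39.5 ± 1.61 and 40.1 ± 1.40 CPM (SD, n = 3) and had a log2 fold change of 0.02 (SE 0.07).

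**Figure D3:**
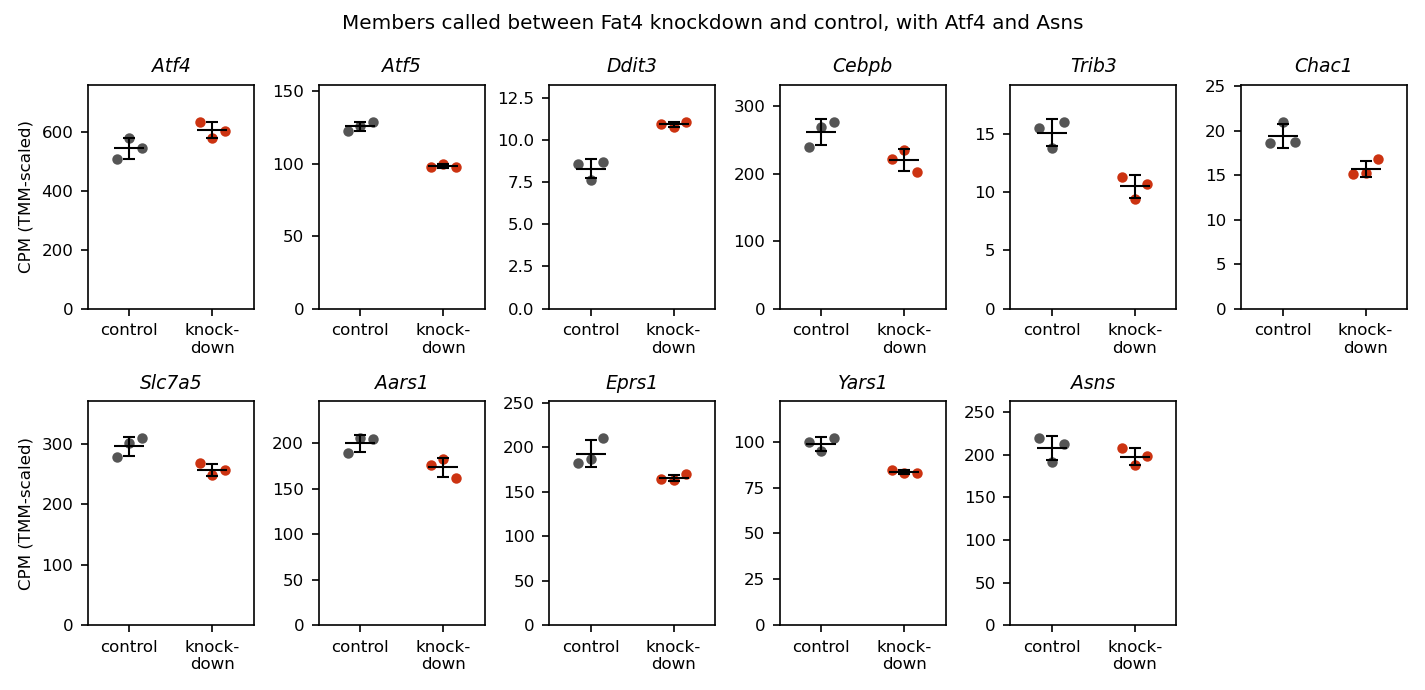
CPM of the 9 genes that passed the test, with Atf4 and Asns beside them, in 3 control (grey) and 3 Fat4 knockdown libraries (red). Each point is a library, the horizontal bar the group mean and the whisker 1 SD, and every axis starts at 0. The groups of Atf5 and Trib3 lie clearly apart, and those of Asns overlap.

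The biosynthetic enzymes did not pass the test, beside 8.44% of all tested genes called lower and 8.94% called higher. Of 5 serine and one-carbon genes and 3 tested genes of asparagine and proline synthesis, 0 rose and 0 fell by edgeR, and none of these 8 passed in DESeq2 or in any fit without a library. Scaled by total count alone, Mthfd2 and Aldh18a1 passed as lower. The median log2 fold change was -0.06 over the 5 serine and one-carbon genes and -0.11 over the 3 others. Removal of GC and length trends took the first median to 0.02.

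Asns (ENSMUSG00000029752, chromosome 6, 7675169 to 7693254), which makes asparagine and is a standard readout of amino acid shortage, carries the element printed above, starting 23 bases before its RefSeq start site. It was measured at 219.6, 192 and 213 CPM in control and at 208, 188 and 199 CPM in knockdown libraries. The groups overlapped, with means of 208 ± 14.5 and 198 ± 9.95 CPM (SD, n = 3). The log2 fold change was -0.07 (SE 0.06, adjusted p = 0.489 by edgeR). Across the 18 other fits it ranged from -0.13 to -0.03.

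The 3 steps of serine synthesis from a glycolytic intermediate are encoded by Phgdh, Psat1 and Psph. Their log2 fold changes were -0.06, 0.10 and 0.06, and the groups overlapped in each. The exons of Psph share 452 bases with Cct6a on the opposite strand, a gene with more counts, and its value is uncertain for that reason. Shmt2, which splits serine into glycine in mitochondria, had a log2 fold change of -0.07. Mthfd2, the mitochondrial folate enzyme, stood at 239.8, 244 and 245 CPM in control and at 212, 223 and 226 CPM in knockdown libraries. Its groups did not overlap, and its log2 fold change of -0.14 (SE 0.06) missed the threshold (adjusted p = 0.0889 by edgeR).

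Aldh18a1, which opens proline synthesis from glutamate, had a value of similar size. It stood at 188, 191 and 191 CPM in control and at 172, 157 and 183 CPM in knockdown libraries, a log2 fold change of -0.16 (adjusted p = 0.0996 by edgeR). Pycr1, which closes the proline pathway in mitochondria, was low at 6.36 ± 1.40 and 5.88 ± 0.34 CPM (SD, n = 3), with overlapping groups and a log2 fold change of -0.11 (SE 0.16).

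The amino acid transporters all had negative values, and 1 of 5 tested fell. Their log2 fold changes lay between -0.20 and -0.12, with a median of -0.18, and each of the 5 values was negative in all 18 other fits. The number that fell was 4 without control replicate 1, and 0 without control replicate 2 or 3 or without knockdown replicate 2. After removal of GC and length trends 0 fell and the median was -0.07.

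Slc7a5 (chromosome 8, 122607889 to 122634433) encodes LAT1, which imports leucine and other large neutral amino acids. It was measured at 279, 302 and 309.7 CPM in control and at 268, 248 and 257 CPM in knockdown libraries. The groups did not overlap, though control replicate 1 and knockdown replicate 1 were close. The log2 fold change was -0.20 (SE 0.06, adjusted p = 0.0273 by edgeR). Slc7a5 was not called without control replicate 2 (0.130) or 3 (0.110) and without knockdown replicate 2 (0.124) or 3 (0.0708) and after removal of GC and length trends (0.185).

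Slc3a2, the heavy chain that pairs with LAT1, stood at 226, 252 and 241 CPM in control and at 209.9, 196 and 224 CPM in knockdown libraries, a log2 fold change of -0.19 (SE 0.06, adjusted p = 0.0525 by edgeR). It passed without control replicate 1 (0.0152) and without knockdown replicate 3 (0.0395). Its exons share 386 bases with the noncoding gene Snhg1 on the opposite strand, which had more counts than Slc3a2 itself, so its value is uncertain. Slc7a1, the main importer of arginine and lysine, had a log2 fold change of -0.18 (adjusted p = 0.0529 by edgeR, and 0.0108 without control replicate 1). Slc1a5, which carries glutamine, had -0.16 (adjusted p = 0.122 by edgeR, and 0.0247 without control replicate 1), and Slc1a4, a carrier of alanine, serine and cysteine, had -0.12.

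Aminoacyl-tRNA synthetases, which join amino acids to their tRNAs, fell in part. Of the 9 cytosolic synthetase genes, Yars1, Eprs1 and Aars1 fell (33.3%, beside 8.44% of all tested genes) and 0 rose. The median log2 fold change of the 9 was -0.11. The number that fell was 1 without control replicate 2, 0 without control replicate 3, 1 without knockdown replicate 1 and 2 without knockdown replicate 2. None passed after removal of GC and length trends, where the median was -0.10.

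Yars1 (ENSMUSG00000028811, chromosome 4, 129083553 to 129113400), for tyrosine, was measured at 100.1, 94.9 and 102 CPM in control and at 84.8, 83.1 and 83.2 CPM in knockdown libraries. The groups lay apart and the knockdown libraries were nearly level. The means were 99.0 ± 3.69 and 83.7 ± 0.96 CPM (SD, n = 3), which gives a log2 fold change of -0.24 (SE 0.06, adjusted p = 0.0122 by edgeR). Yars1 lost its call without control replicate 3 (0.0511) and after removal of GC and length trends (log2 fold change -0.16, 0.0753).

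Eprs1 (chromosome 1, 185095241 to 185160557) encodes a fused enzyme for glutamate and proline and has the longest exon total of the 35 genes, 18102 bases. It was measured at 182, 187 and 210.0 CPM in control and at 164, 163 and 169 CPM in knockdown libraries, a log2 fold change of -0.22 (SE 0.06, adjusted p = 0.0237 by edgeR). Every knockdown library lay below every control library. Eprs1 was not called without control replicate 2 (0.0703) or 3 (0.142) and without knockdown replicate 1 (0.0826) or 2 (0.0901) and after removal of GC and length trends (-0.13, 0.16).

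Aars1 (chromosome 8, 111759776 to 111784296), for alanine, was measured at 189, 205 and 205 CPM in control and at 176, 183 and 162 CPM in knockdown libraries. The groups did not overlap. The log2 fold change was -0.20 (SE 0.06, adjusted p = 0.0323 by edgeR), and it was -0.03 after removal of GC and length trends. Aars1 was not called without control replicate 2 (0.158) or 3 (0.103) and without knockdown replicate 1 (0.0794) or 3 (0.143). Its exons share 1326 bases with Exosc6 on the same strand, so reads there could be divided between the genes.

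Of the other synthetases, Mars1, for methionine, came nearest the threshold, at 55.4 ± 2.54 and 48.2 ± 3.10 CPM (SD, n = 3; difference in log2 -0.20, adjusted p = 0.0526 by edgeR). It passed without control replicate 1 (0.0283) and without knockdown replicate 3 (0.0472). The exons of Mars1 share 68 bases with Ddit3 on the opposite strand, a gene with fewer counts. Gars1, for glycine, was the most variable in the knockdown group, at 396, 298 and 345 CPM against 378, 367 and 379 CPM in control libraries. Nars1, for asparagine, had a log2 fold change of -0.09, Sars1, for serine, 0.08, Iars1, for isoleucine, 0.01, and Wars1, for tryptophan, 0.01. The groups overlapped in each of these 5.

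The 10 genes with the element in their windows were set beside the 18 whose windows lack it. Of the 10, 4 fell and 0 rose, with a median log2 fold change of -0.12. Of the 18, 3 fell and 1 rose, with a median of -0.11. Among tested genes outside the 35 whose windows hold the letters, 211 in number, 11.8% were called lower and 5.69% higher, with a median of -0.03. Among the 8691 without the letters 9.45% were called lower and 8.20% higher, also with a median of -0.03. The difference between these shares was not tested.

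The rest of the pathway was read from lists compiled from textbook knowledge. Upstream, 16 genes for eIF2, its exchange factor eIF2B, its kinases and their regulators had a median log2 fold change of 0.01. Of these 16, 2 rose (12.5%) and 1 fell (6.25%), beside 8.94% and 8.44% of all tested genes. Eif2s1, whose product is the phosphorylated subunit of eIF2, went from 135 ± 10.5 to 170.1 ± 10.5 CPM (SD, n = 3; difference in log2 0.33, SE 0.07, adjusted p = 0.0043 by edgeR). It rose in all 18 other fits. Eif2s2, another eIF2 subunit, rose (0.23, adjusted p = 0.0331 by edgeR) and kept its call in 1 of the 6 fits without a library, that without control replicate 1 (0.0012). In the other 5 the adjusted p was 0.0605 without knockdown replicate 3 and up to 0.161 without control replicate 3, and it was 0.0502 after removal of GC and length trends and 0.0644 with scaling by total count. Dnajc3, an inhibitor of eIF2 kinases in the endoplasmic reticulum, fell (-0.24, adjusted p = 0.0213 by edgeR), a call lost without control replicate 2 (0.0583) or 3 (0.0784) and without knockdown replicate 1 (0.109) or 2 (0.0676) and in DESeq2 (0.0653). The 4 kinase genes Eif2ak1, Eif2ak2, Eif2ak3 and Eif2ak4 had log2 fold changes of -0.10, -0.09, -0.21 and -0.10 and did not pass the test.

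Other genes reported as ATF4 targets included several that fell. Of 21 tested, 9 fell and 1 rose, 42.9% and 4.76% beside 8.44% and 8.94% of all tested genes, with a median log2 fold change of -0.26. The number that fell was 5 without control replicate 2, 4 without control replicate 3, 4 without knockdown replicate 1, 5 without knockdown replicate 2 and 6 without knockdown replicate 3, and it was 6 after removal of GC and length trends and 4 in DESeq2. The list was compiled with earlier results of these data known, and it is no independent evidence of a direction. Gpt2, a mitochondrial alanine transaminase, went from 23.3 ± 0.84 to 17.1 ± 1.11 CPM (SD, n = 3; difference in log2 -0.45, SE 0.09, adjusted p = 0.0028 by edgeR), and it fell in all 18 other fits. Fgf21, a secreted stress hormone, was scarce at 1.74 ± 0.06 and 0.99 ± 0.17 CPM and fell (-0.81, adjusted p = 0.0489 by edgeR), a call lost in each of the 6 fits without a library, from 0.0692 without control replicate 1 to 0.163 without knockdown replicate 3. Fgf21 was not called with RLE (0.0512) or upper-quartile scaling (0.0531) or with no filter (0.0948) either. Klhl24, a ubiquitin ligase adaptor, fell (-0.49, adjusted p = 0.0232 by edgeR), a call lost without control replicate 3 (0.0734), knockdown replicate 1 (0.129) or knockdown replicate 3 (0.0706) and in DESeq2 (0.0614). The gene that rose, named after its value was seen, was Map1lc3b, an autophagy gene (0.23, adjusted p = 0.028 by edgeR). Map1lc3b was not called without control replicate 2 (0.0975) or 3 (0.142), without knockdown replicate 1 (0.112) or 3 (0.0699), or with scaling by total count (0.0801).

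For tRNA charging outside the 35 genes, shares called are read beside 8.94% higher and 8.44% lower of all tested genes. Of 15 other cytosolic synthetase and scaffold genes 0 fell and 1 rose (6.67%), with a median log2 fold change of -0.03. The riser was Eef1e1, a scaffold of the multisynthetase complex, from 73.5 ± 7.85 to 93.1 ± 5.62 CPM (SD, n = 3; difference in log2 0.34, adjusted p = 0.00664 by edgeR). Without control replicate 1, 3 of the 15 rose. Of 17 mitochondrial synthetase genes 0 rose and 1 (5.88%), Lars2, fell. Lars2, for leucine, stood at 110.5, 131 and 132 CPM in control and at 83.4, 69.8 and 83.4 CPM in knockdown libraries, a log2 fold change of -0.66 (SE 0.08, adjusted p = 0.00016 by edgeR). Lars2 fell in all 18 other fits, and its change was larger than that of any of the 33 tested genes of the main list. Exon overlaps were looked up only for the 35 genes, so an overlap at Lars2 was not checked.

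Amino acid enzymes, transporters and sensors beyond the 35 genes had 1 call a list, beside 8.94% higher and 8.44% lower of all tested genes. Of 19 other amino acid and one-carbon enzymes 1 rose and 0 fell (5.26% higher, median log2 fold change 0.01). It was Mthfd2l, a mitochondrial folate enzyme (0.34, adjusted p = 0.0354 by edgeR), and its call held in 1 of the 6 fits without a library, that without knockdown replicate 1 (0.0323), with up to 0.176 without knockdown replicate 2, 0.0761 in DESeq2 and 0.068 with scaling by total count. Without control replicate 1, 2 of the 19 fell. Of 10 other transporters 1 fell and 0 rose (median -0.13), namely Slc6a6, the taurine carrier, from 474 ± 13.0 to 403 ± 24.2 CPM (SD, n = 3; difference in log2 -0.23, adjusted p = 0.0135 by edgeR). It was not called without control replicate 2 (0.0608) or 3 (0.0545) and without knockdown replicate 1 (0.0712) or 2 (0.0666), nor after removal of GC and length trends (0.105). Without control replicate 1, 3 of 11 tested transporters fell. Of 20 mTORC1 amino acid sensing genes 1 rose and 0 fell (5.0% higher, median 0.00). It was Rraga, a Rag GTPase (0.25, adjusted p = 0.016 by edgeR), with the call lost without control replicate 2 (0.0603) or 3 (0.0513) and without knockdown replicate 1 (0.0501) or 2 (0.0946), after removal of GC and length trends (0.0803) and with scaling by total count (0.0506).

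**Figure D4:**
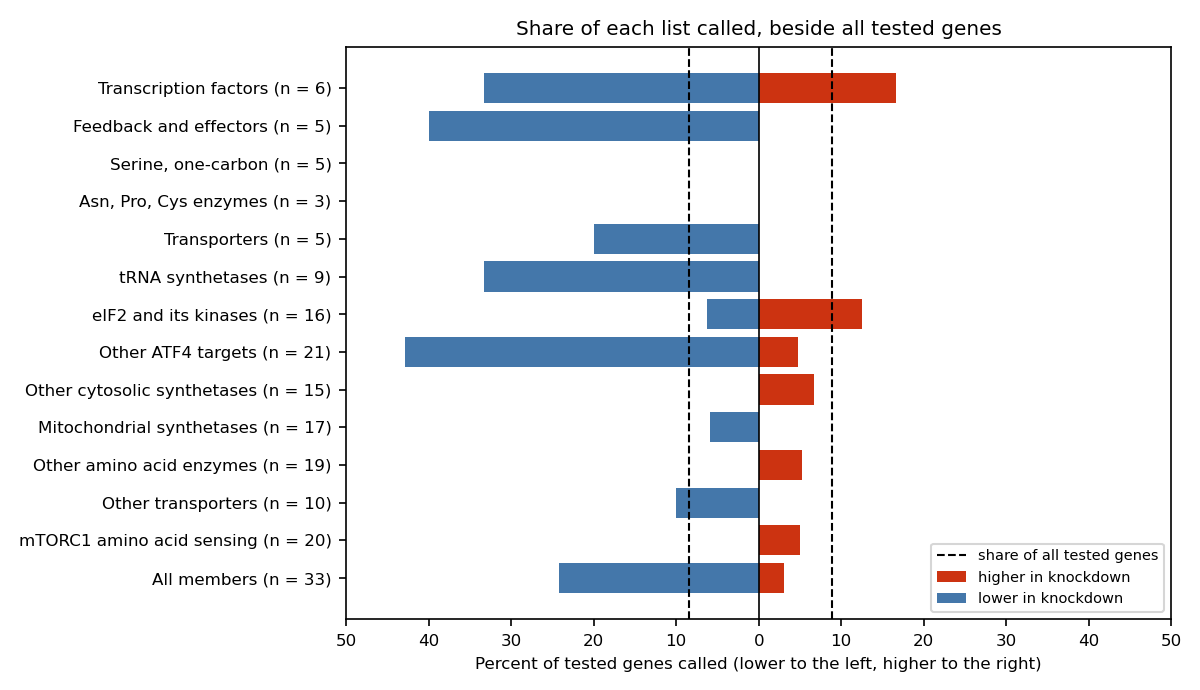
Percent of tested genes in each list called lower (blue, to the left) or higher (red, to the right) in the Fat4 knockdown, with the number tested beside each name. Dashed lines mark the shares over all tested genes, 8.44% lower and 8.94% higher. The bars for feedback genes and for other ATF4 targets reach 40.0% and 42.9% lower, and the enzyme groups of the 35 genes have no bar.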

How the data were processed

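Messenger RNA was converted to cDNA and tagmented, per the labels' protocols. The submitters' processing notes name fastp 0.24.0, STAR 2.7.11, SAMtools 1.22.1 and the GRCm39 genome, to which gene coordinates refer. Those sources name no counting tool, strand setting or annotation release. The deposited table holds estimated counts per gene, 29.0% of the nonzero values not whole (tolerance 1e-06), and CPM values that, as deposited, equal count over library total. Counts split between features make overlapping genes uncertain.

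Counts were rounded, 92 spike-in rows left out, low genes removed with filterByExpr, and libraries scaled by TMM. Tests used edgeR 4.0.16 (glmQLFit with its robust option, glmQLFTest) in R 4.3.3 with no block, and a call is an adjusted p (Benjamini-Hochberg) under 0.05. The SE is the log2 fold change over the square root of F. CPM means use TMM-scaled library sizes. Members, lists and settings were chosen with earlier results of these data known. Called members, Atf4, Ddit3 and Asns are given in full, and of each other list up to 3 called genes with the largest change. Alternatives were scaling by RLE, upper quartile or library size, DESeq2 1.42.0, limma 3.58.1 (voom), other filters, a replicate block, each library left out, summed repeated symbols and GC and length offsets (mgcv 1.9-3; GC from a GRCm38 annotation by gene identifier), and, chosen after seeing the data, no robust option and both corrections together.

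In a simulation of this comparison with 13214 genes the test recovered 31 of 50 genes changed 1.3-fold and 50 of 50 changed 1.5-fold. Of 187 calls 6 were false. Only genes at 10 CPM or more were changed, all genes had the same dispersion, and no GC or length trend was present. These rates therefore do not carry over to scarcer genes or to data with such trends. Most changes reported here are under 1.3-fold. The sequences of 5 of the 11 promoter matches are not reported here.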

Additional observations from a re-analysis of the deposited data

How the results depend on the processing

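Among the 35 genes, Atf5 and Trib3 kept their call in all 18 alternative fits, Yars1 in 15 and the other 6 called genes in fewer. Medians below are log2 fold changes of lists, and the cause of the differences was not tested. With libraries scaled by total count, 16 of the 35 fell and their median was -0.18, with medians of 0.048 for the transcription factors, -0.36 for feedback genes, -0.12 for serine and one-carbon genes, -0.17 for asparagine and proline genes, -0.17 for synthetases, -0.051 for eIF2 genes, -0.32 for other ATF4 targets, -0.091 for other cytosolic and -0.11 for mitochondrial synthetases, -0.048 for other enzymes, -0.19 for other transporters and -0.056 for mTORC1 sensing, while the median of all genes moved from -0.01 to -0.07. DESeq2 called 1535 genes, with 0 of the 35 higher, and limma-voom put Fat4 at -1.04, where it was not called. With no filter the 35 had a median of -0.15 and other transporters -0.17. With at least 10 CPM in 3 libraries the medians were 0.053 for transcription factors, -0.24 for feedback genes and -0.21 for other ATF4 targets.

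Removal of GC and length trends left 3 of the 35 lower, with a median of -0.067, and gave 0.023 for serine and one-carbon genes, -0.067 for transporters, 0.049 for eIF2 genes, -0.0082 for other cytosolic and 0.024 for mitochondrial synthetases, -0.040 for other transporters, 0.060 for mTORC1 sensing and -1.01 for Fat4. The same removal together with a replicate block gave 3 lower, 1368 genes called, -0.066, 0.022, -0.066, 0.049, -0.0047, 0.022, -0.041 and 0.060 in that order, -0.22 for other ATF4 targets and -0.97 for Fat4.

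Leaving out each library in turn gave 0 to 1 of the 35 higher, 2 to 12 lower and 1029 to 3077 genes called. The medians then ranged from -0.15 to -0.10 for the 35, 0.07 to 0.12 for transcription factors, -0.35 to -0.25 for feedback genes, -0.20 to -0.10 for synthetases, -0.0091 to 0.044 for eIF2 genes, -0.071 to -0.011 for other cytosolic synthetases, -0.082 to 0.0032 for mitochondrial synthetases and -0.14 to 0.012 for other transporters, and Fat4 from -1.44 to -0.82.

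The labels number the libraries of both groups 1 to 3 without saying that a number pairs them. Same-numbered libraries correlated in their deviations from the group means at -0.20, -0.16 and 0.14, so the numbers were not taken as pairs. Libraries with different numbers ranged from -0.20 to 0.27. The highest were control replicate 1 with knockdown replicate 2 (0.27) and control replicate 2 with knockdown replicate 1 (0.23). Whether libraries of the 2 groups share a batch under other pairs was not tested. With a replicate block 9 of the 35 fell, 1 rose and 2001 genes were called. Chac1 lost its call under the block (adjusted p = 0.0534 by edgeR), and Eif4ebp1 and Slc7a1 gained one. Of the other ATF4 targets 5 fell under it, against 9 without, and Klhl24 (0.0545) and Fgf21 (0.0806) were not called. Depth limits Cth, Slc7a3, Sesn2 and Fat4, which had 1 to 51 counts a library. It also limits Fgf21, which was scarce, and Atf3, which had 32 to 65 counts a library.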
